A study of Mus musculus with 3 samples.

Results

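The Ido1 goblet cells were 785 of the 12653 cells measured in mouse small intestine, or 6.20%. They were chosen by the expression values themselves, in 2 steps. The 16% of cells of each library with the highest summed values of the goblet genes Agr2, Fcgbp, Spink4, Tff3, Zg16 and Clca1 were taken first, which gave 2024 cells. Of these, 17 were dropped for a summed level of 6 mitosis genes (Ube2c, Cdc20, Ccnb1, Birc5, Top2a and Cenpf) of 20 or more, and 37 for summed alpha-defensins of 1500 or more, both in UMIs per 10000, so that 1970 goblet cells remained. A UMI is a molecular tag that counts 1 captured RNA molecule. The mean log values of 3 gene panels were then put on a common scale over the 1970 cells (z-scores, in standard deviations from the mean), and each cell took the name of its highest panel. The 785 cells with Ido1, Tm4sf4 and Gsta4 highest are the Ido1 goblet cells, the 619 with Ccl9, Reg4 and Fkbp11 highest are the Reg4 goblet cells, and the 566 with Mptx1, Retnlb and Klk1 highest are the Retnlb goblet cells. The last 2 classes together are the other goblet cells.

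The cells came from ICR male mice that were 3 weeks old at the start and were dosed by daily gavage for 2 weeks. The AOS 0 group received water only, the B + A 0 group received 1 injection of busulfan at 40 mg/kg and then water, and the B + A 10 group received the same busulfan and then alginate oligosaccharides (AOS, short chains cut from the alginate of brown seaweed) at 10 mg/kg. Busulfan is an alkylating chemotherapy drug that damages DNA and the gut lining, and the study asked whether AOS protects the small intestine from it. Below, 3 values in a row are those of AOS 0, then of B + A 0, then of B + A 10. Each group is 1 droplet library (10x Genomics, 3' ends of RNA) made from the cells of 6 mice, so no value below has a replicate and no test was made; intervals are 95% and cover counting error only.

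Goblet cells make and release the mucus that separates the gut lining from bacteria. They arise in the crypts from dividing progenitors and are carried up the villus as they age, until they are shed near its tip. Ido1 is the enzyme that opens the tryptophan ring in the first step of the kynurenine pathway, and it is known as a target of interferon. In the mouse genome (GRCm38) Ido1 lies on the minus strand of chromosome 8 at 24584136 to 24597009, Tm4sf4 on the plus strand of chromosome 3 at 57425314 to 57441677, and Gsta4 on the plus strand of chromosome 9 at 78182774 to 78209349. All 3 are protein-coding genes.

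The libraries held 222, 206 and 357 Ido1 goblet cells. The median Ido1 goblet cell had 6957, 5877 and 3409 UMIs, and the B + A 10 library was the shallowest in every class of cell. Summed over cells, the comparisons below rest on 1556251, 1241457 and 1265146 UMIs. Of all cells, 164 carried 1 of 82 barcodes that occur in more than 1 library, and 5 of these were Ido1 goblet cells. The source field calls the B + A 0 library AOS10, a group without busulfan by that name, and the B + A 10 library B+A0. The treatment, title and description fields agree on the groups used here, and every comparison between libraries rests on them.

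The border of the class was not a gap. There were 95 Ido1 goblet cells and 86 other goblet cells within 0.25 z of it, while 581 (74.0%) were ahead of both other panels by at least 0.5 z, and the median lead was 0.99 z. The 5 members nearest the border led by at most 0.0095 z and had a mean panel value of 0.930 on the natural log scale, against 1.23 in the 5 nearest cells outside it, so the class depends on all 3 panels and not on the Ido1 panel alone. Of the 785 cells, 439 had UMIs of all 3 panel genes, 311 of 2 and 35 of only 1. A UMI of Tm4sf4 was found in 95.3%, of Gsta4 in 87.5% and of Ido1 in 68.7% of them. When the nearest neighbours of each cell were found without any gene of the rule, 67.5% of the 15 neighbours of an Ido1 goblet cell were Ido1 goblet cells, against 25.8% for a Retnlb goblet cell and 13.9% for a Reg4 goblet cell. Among all goblet cells, 39.85% were Ido1 goblet cells.

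The share of Ido1 goblet cells among goblet cells was 34.6% (31.0 to 38.5), 41.2% (36.9 to 45.7) and 43.1% (39.7 to 46.5). Both libraries of busulfan-treated mice were above the vehicle library. The difference was 6.57 percentage points (0.903 to 12.2) for B + A 0 minus AOS 0, 8.43 points (3.40 to 13.4) for B + A 10 minus AOS 0 and 1.86 points (-3.63 to 7.29) for B + A 10 minus B + A 0. The interval of the first left out 0 in 9 of 14 ways of choosing the cells, the difference was above 0 in all 14, and it was lowest, at 0.742 points, with every cell thinned to 2000 UMIs and Ido1 left out of its panel. B + A 10 minus B + A 0 was above 0 in 9 of 14, from -2.73 to 5.92 points. B + A 10 minus AOS 0 left out 0 in 13 of 14, with 2.69 points when the panels were put on a common scale within each library. The Reg4 goblet cells went the other way, with 38.5%, 27.8% and 28.1%, and the Retnlb goblet cells were 26.8%, 31.0% and 28.8%. The first step of the rule takes the same share of every library, so these percentages say nothing of how many goblet cells a mouse had, and with 1 library per group the treatment and the library cannot be told apart.

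**Figure D1:**
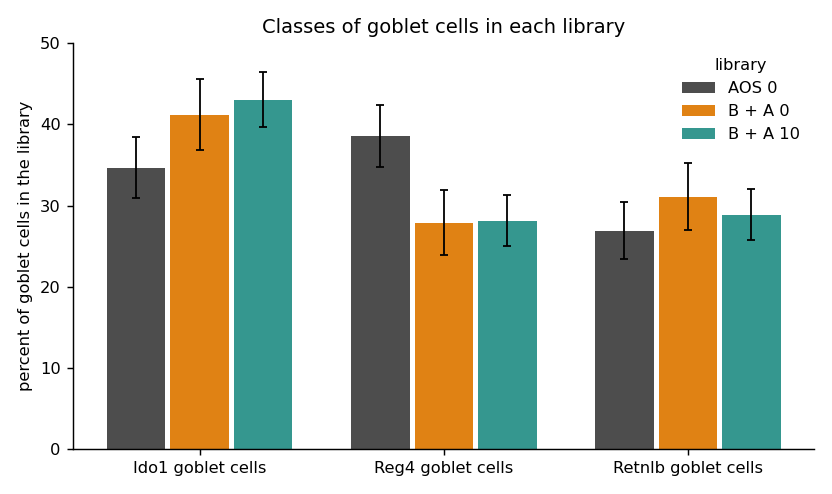
Percent of the goblet cells of each library (641, 500 and 829 cells) in the 3 classes, with exact binomial 95% intervals that cover counting error only. The Ido1 goblet cells are 34.6%, 41.2% and 43.1% in this order, and the Reg4 goblet cells 38.5%, 27.8% and 28.1%.

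The genes of the panel show how the class looks, but they chose it and are given as a description. Levels are UMIs of a gene per 10000 UMIs, summed over the cells of a class in a library. Ido1 was at 7.31, 6.24 and 5.65 in Ido1 goblet cells. In Reg4 goblet cells Ido1 was at 0.0844, 0.111 and 0.537, and in Retnlb goblet cells at 0.289, 0.461 and 0.396, so it was lower in both other classes in every library. Tm4sf4, a membrane protein with a tetraspan fold, was at 11.2, 9.89 and 8.73 in Ido1 goblet cells and at most at 5.94 in the other classes. Gsta4, a glutathione transferase that clears reactive lipid aldehydes, was at 7.83, 7.96 and 7.65 against at most 3.21. All 3 genes were far lower in the 16% of cells outside the goblet cells with the highest enterocyte genes, called the enterocyte reference here, where Gsta4 was at most at 0.707.

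Detection of Ido1 at equal depth gave the same picture. With each cell thinned to 1000 UMIs, 39.2%, 41.3% and 37.0% of Ido1 goblet cells kept an Ido1 UMI. The same share was 1.22%, 1.44% and 1.72% in Reg4 goblet cells and 4.65%, 1.94% and 3.35% in Retnlb goblet cells. In the enterocyte reference it was 0.304%, 0.391% and 0.350%, with median depths of 5000, 4913 and 2587 UMIs before thinning. Without thinning it was 68.5%, 75.2% and 65.0% in Ido1 goblet cells. The rule chose these cells for Ido1, which fixes the direction. The intervals of the 3 libraries overlapped in Ido1 goblet cells (32.7 to 46.0, 34.5 to 48.3 and 32.0 to 42.2).

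Each panel gene was also read in cells that it had not helped to choose. When Ido1 was left out of its panel, Tm4sf4 and Gsta4 chose 805 cells, of which 714 were Ido1 goblet cells. Ido1 was 6.68 times (6.09 to 7.34) as high in these as in the remaining goblet cells, with 11.2, 4.87 and 4.67 times in the single libraries. Tm4sf4 was 2.01 times (1.92 to 2.11) as high in the cells chosen without it, and Gsta4 2.17 times (2.05 to 2.29). Each of the 3 genes was thus higher in goblet cells chosen without it. The choice still needed the Reg4 and Retnlb panels to be lower than the rest of the Ido1 panel, and the base of cells was shared. This is therefore a description, and whether the 3 genes went together apart from the other panels was not tested. Compared at equal depth, as the share of cells with a UMI, the ratios over all libraries were 4.79 for Ido1, 1.71 for Tm4sf4 and 1.94 for Gsta4.

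The 2 further markers of the class were not used by the rule. S100a6, a small calcium-binding protein, was at 47.7, 48.8 and 53.3 in Ido1 goblet cells, against 13.8 to 19.0 in Reg4 and 19.0 to 23.2 in Retnlb goblet cells. Fer1l6, a member of the ferlin family of membrane fusion proteins, was at 2.13, 1.73 and 1.76, against 0.545 to 1.01 in both other classes over the 3 libraries. Neither range overlapped with that of the other goblet cells, and both genes were below 1 in the enterocyte reference.

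Over all genes with at least 200 UMIs in goblet cells, 46 of 4194 (1.1%) were at least 2-fold higher in Ido1 goblet cells than in the other goblet cells in each library, and 274 (6.53%) were at least 2-fold lower. The mucus genes of the first step took 43.1%, 46.7% and 44.2% of the UMIs of Ido1 goblet cells, against 26.2%, 29.9% and 29.5% in the other goblet cells. This lowers every other gene per 10000, and the median log2 ratio of all genes was -0.29. When cells were scaled to their UMIs outside mucus, defensin and ribosomal protein genes, the median was -0.06 and the counts were 78 and 133. Ratios below are as measured, and a gene at the median of all genes has a log2 ratio of -0.29.

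Secreted mucus proteins led in level. Zg16, a lectin that binds bacteria, took 19.1%, 19.4% and 17.9% of all UMIs in Ido1 goblet cells, and Tff3, a trefoil peptide of mucus, took 17.2%, 20.5% and 19.7%. Zg16 was at 1907, 1941 and 1790 per 10000 against 696 to 763 in Reg4 and 996 to 1132 in Retnlb goblet cells. Clca1, a secreted protease that loosens mucus, was at 99.9, 87.8 and 76.3 against 24.9 to 27.5 and 37.5 to 46.1. Fcgbp, which binds the mucin network, was at 242, 247 and 236, and Muc2, the gel-forming mucin itself, was at 144, 137 and 132 against 75.4 to 103 in both other classes. Not all goblet products were high. Agr2, a folding enzyme for mucin in the endoplasmic reticulum, was at 105, 97.5 and 82.2 against 142 to 308, and Spink4, a secreted protease inhibitor of goblet cells, was at 238, 240 and 261 against 401 to 635. Of the 11 mucus components tested, 5 were at least 1.5-fold higher and 4 at least 1.5-fold lower in each library, where the shares over all genes were 3.0% and 18.8%. Of these 11 genes, 6 set the goblet cells in the first step and Retnlb belongs to another panel, so their levels and this count are a description of the class. Without these 7 genes of the rule, 1 of 4 was at least 1.5-fold higher and 1 at least 1.5-fold lower, with a median log2 ratio of 0.56.

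**Figure D2:**
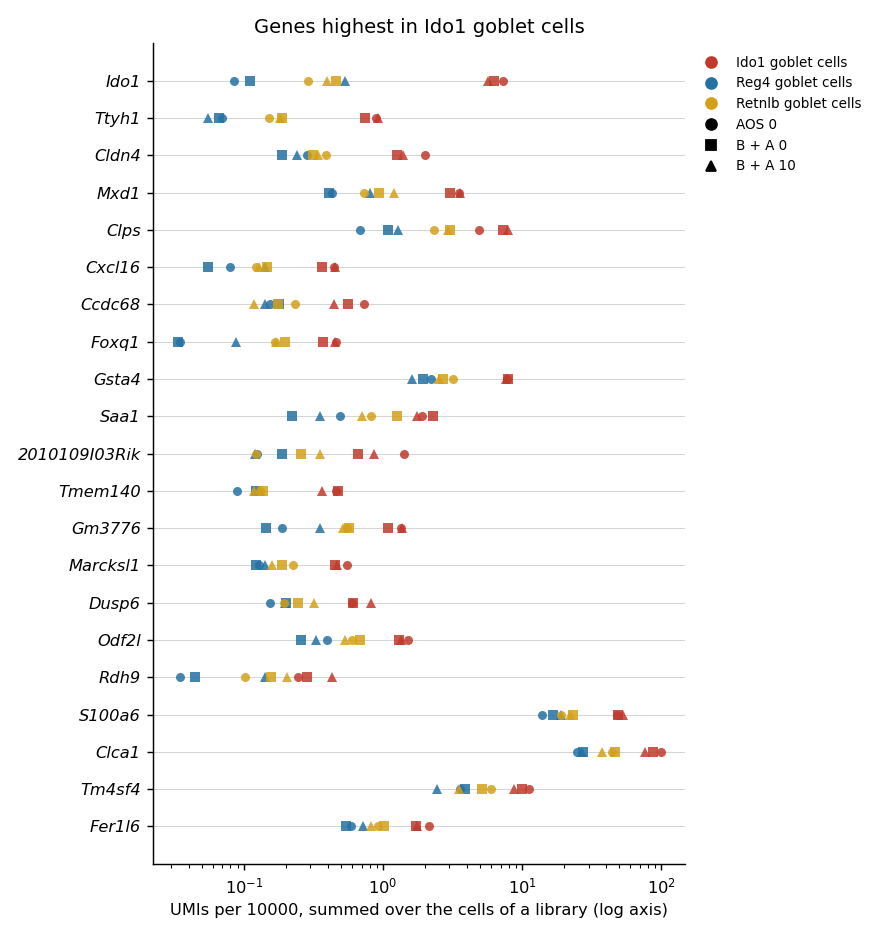
Levels in UMIs per 10000 (log axis) of genes with the highest ratio of Ido1 goblet cells to other goblet cells and of the remaining markers, 1 point per class and library. For the genes above Tm4sf4 all 3 red points (Ido1 goblet cells) lie to the right of the points of both other classes.

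Among genes outside the rule, Ttyh1, a membrane protein of the tweety family, came first, at 0.893, 0.741 and 0.925 against at most 0.187 in either other class. Cldn4, a claudin of tight junctions, was at 2.01, 1.26 and 1.38 against at most 0.390, with ratios to the other goblet cells of 6.16 (4.95 to 7.72), 4.92 (3.55 to 6.93) and 4.73 (3.47 to 6.55). Both genes were close to 0 in the enterocyte reference, where Ttyh1 was at most at 0.0206 and Cldn4 at most at 0.169. Mxd1, a transcriptional repressor that competes with Myc for its partner Max, was at 3.53, 3.02 and 3.59 against at most 1.20, with 1.87 to 2.50 in the enterocyte reference. Clps, the colipase that helps lipase to bind fat, was at 4.90, 7.23 and 7.88 against 0.680 to 3.00. The B + A 10 value of Clps was the highest of the 3 libraries and the AOS 0 value the lowest.

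Further genes of the highest 20 fell into a few known kinds. Signalling genes included Dusp6, the phosphatase of ERK kinases, at 0.598, 0.612 and 0.822 against at most 0.321, and Marcksl1, an actin-binding protein, at 0.546, 0.451 and 0.466 against at most 0.224. Host defence genes were Saa1, a serum amyloid protein, at 1.90, 2.30 and 1.76 against at most 1.27, and Cxcl16, a chemokine that attracts lymphocytes, at 0.443, 0.363 and 0.451 against at most 0.147. Foxq1, a forkhead transcription factor, was at 0.463, 0.371 and 0.451 against at most 0.196, and Rdh9, a retinol dehydrogenase, at 0.244, 0.282 and 0.427 against at most 0.203. The ratios of Cxcl16, Foxq1 and Rdh9 rest on at most 252 UMIs each over all goblet cells. Gm3776, which lies near Gsta4 on chromosome 9, was at 1.36, 1.08 and 1.37 against at most 0.569, and whether the reads of similar glutathione transferase genes were told apart was not tested.

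Among the genes that were lower in Ido1 goblet cells were those of protein synthesis and of the early secretory pathway. All 81 ribosomal protein genes tested were at least 1.5-fold lower in each library, with a median log2 ratio of -1.45 (-1.22 with the other scaling). Their summed level was 383, 414 and 432 per 10000, against 1204 to 1244 in Reg4, 874 to 946 in Retnlb goblet cells and 370 to 504 in the enterocyte reference. Per 10000 of all UMIs, Ido1 goblet cells were thus near enterocytes in this sum and below both other goblet classes. The mucus genes of the first step were at 4310, 4665 and 4415 per 10000, against 31.9, 85.9 and 70.1 in the enterocyte reference. The sum was not compared with enterocytes outside these genes, so the nearness holds for this scaling only. Ido1 goblet cells also had fewer genes per cell at equal depth, with medians of 347, 344 and 362 at 1000 UMIs. The medians were 484 to 498 in Reg4 and 417 to 421 in Retnlb goblet cells, and the 1000 UMIs include those of mucus genes.

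Of 20 genes for folding secreted proteins, 13 were at least 1.5-fold lower in each library and none was 1.5-fold higher. The shares over all genes were 18.8% and 3.0%. The median log2 ratio of the 20 was -0.98 (-0.75 with the other scaling). The rule holds Fkbp11 low, and without it 12 of 19 were lower, with a median of -0.94. Pdia5, a disulfide isomerase, was at 0.219, 0.177 and 0.174 against 1.49 to 2.23 in Reg4 goblet cells, and Hspa5, the main chaperone of the endoplasmic reticulum, had ratios of 0.547, 0.523 and 0.490. Xbp1, the transcription factor of the unfolded protein response, was nearer to the median of all genes, at 0.866, 0.740 and 0.877. Other genes among the 10 lowest were Hsd11b2, which inactivates glucocorticoids, at 0.0643, 0.0403 and 0.0237 against at most 0.556, Tac1, the precursor of substance P, at 0.167, 0.0644 and 0.103 against at most 1.13, and Srm, the spermidine synthase, at 0.0578, 0.0806 and 0.0474 against at most 0.592. Fut2, which adds terminal fucose to mucin, was at 0.109, 0.129 and 0.119 against 0.481 to 0.778. The low levels of Hsd11b2 and Srm rest on few UMIs in the Ido1 goblet cells.

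Of 13 mucin glycosylation genes, 2 were at least 1.5-fold lower and none was 1.5-fold higher, where 18.8% of all genes were lower by this measure, and the median log2 ratio was -0.14, which turned to 0.10 with the other scaling. Fut2 was one and C1galt1c1, the chaperone of the enzyme that builds the core of mucin sugars, the other, with ratios of 0.467, 0.440 and 0.597. Gcnt3, which branches those sugars, had ratios of 1.40, 1.25 and 1.28. Of 10 secretory fate factors, 4 were lower by this measure. Sox9, a factor of crypt progenitors, had ratios of 0.156, 0.271 and 0.264, whereas Atoh1, which sets the secretory fate, had 1.27, 0.931 and 1.33 and Klf4, a factor of mature goblet cells, had 1.75, 1.41 and 1.67. Atoh1 thus lay near the level of the other goblet cells, while Sox9 rests on 8, 10 and 13 UMIs.

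**Figure D3:**
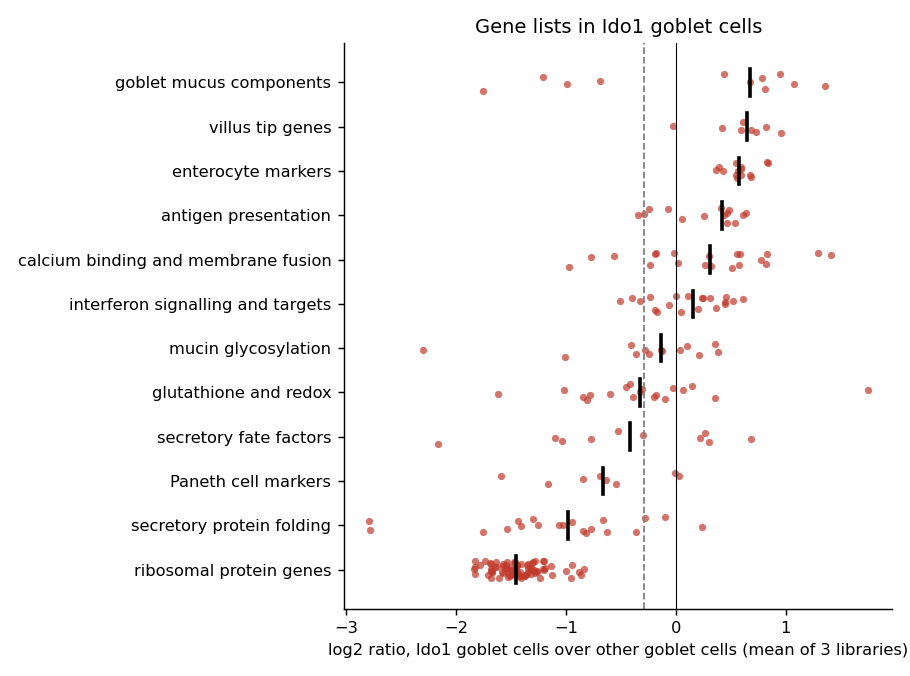
Log2 ratio of Ido1 goblet cells to other goblet cells, as the mean of 3 libraries, for each tested gene (points) of 12 gene lists, with the median of each list (black bar). The dashed line is the median of all genes, -0.29. Ribosomal protein genes lie lowest (median -1.45) and mucus components and villus tip genes highest (0.68 and 0.64). Of the 11 mucus components, 7 are genes of the rule, and the other 4 have a median of 0.56.

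The name of the class says that these cells lie on the villus, and position was not measured. Of 8 genes known from the villus tip, 7 were higher in Ido1 goblet cells than in the other goblet cells in every library, where 17.4% of all genes were, 2 of them by at least 1.5-fold, and the median log2 ratio was 0.64. Krt20, a keratin of ageing gut epithelium, was at 8.59, 6.88 and 6.28 against 3.24 to 4.01 in both other classes, and Fos had ratios of 1.66, 1.59 and 1.75. Ada, an adenosine deaminase of the tip, had ratios of 0.975, 0.951 and 1.02 and was the exception. Of 9 genes of the villus bottom and crypt top, none passed 1.5-fold in either direction, and the median was -0.25, near the -0.29 of all genes. Of the 5 crypt stem and dividing cell markers that could be tested, none was higher in each library and 1 was 1.5-fold lower. This is near the share of all genes, of which 18.8% were 1.5-fold lower. Ube2c and Birc5 among the 5 are also mitosis genes by which the rule dropped cells. These counts are what the data hold on the word villus in the name, and the tip genes were higher with both scalings.

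Enterocytes are the main cells of the villus, and their genes were higher too. Of 14 enterocyte markers, 11 were higher in Ido1 goblet cells in each library, none by 1.5-fold in all 3, against 17.4% of all genes higher in each library, with a median log2 ratio of 0.58. The markers summed to 97.8, 89.4 and 129 per 10000, against 55.4 to 89.6 in Reg4 and 63.5 to 83.3 in Retnlb goblet cells. In the median Ido1 goblet cell they summed to 53.9, 74.6 and 74.5, and none of the 16 markers was at 0. The sums were 1220, 999 and 1101 in the median cell of the enterocyte reference. The same 16 markers chose that reference, which fixes the direction of this gap. Doublets, droplets with 2 cells, were kept. The 5% of cells of each library with the highest doublet scores held 55 Ido1 goblet cells (7.01%), and the part of free RNA and doublets in the enterocyte genes was not tested.

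Release of mucus needs calcium and vesicle fusion. Of 20 genes for calcium binding and membrane fusion, 5 were at least 1.5-fold higher in each library (3.0% of all genes were) and 1 was lower (18.8% were). The 5 were Anxa3, Rab27a and Sytl2, and S100a6 and Fer1l6. The last 2 are the further markers of the class given above, so their part of this count is a description. Rab27a, which tethers secretory granules, was at 1.23, 1.08 and 1.29 against at most 0.795 in the other classes, and its partner Sytl2 was at 1.14, 1.10 and 0.870 against at most 0.701. Anxa3, an annexin that binds membranes with calcium, was at 0.957, 0.733 and 0.617 against at most 0.492. Both Rab27a and Sytl2 were near 0 in the enterocyte reference. Anxa5, another annexin, had ratios of 0.423, 0.695 and 0.447, and the gene that was 1.5-fold lower throughout was Rab3d, another granule protein, at 0.604, 0.553 and 0.605.

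Antigen presentation genes stood above the median of all genes, and none of them was 1.5-fold higher in every library. Of 14 tested, 8 were higher in each library (17.4% of all genes were) and 3 were lower in each (55.3% were), and the median log2 ratio was 0.42. B2m, the light chain of class I molecules, was at 52.7, 47.9 and 41.9, with ratios of 1.60, 1.55 and 1.45, and Cd74, the chain that guards class II molecules, had ratios of 0.805, 0.884 and 0.853. Of 20 interferon genes none passed 1.5-fold in either direction, and the median was 0.15. Ifngr1, which binds interferon gamma, had ratios of 1.58, 1.38 and 1.35. Of the 19 glutathione and redox genes, 4 were 1.5-fold lower, a share near the 18.8% of all genes, and the single higher one was Gsta4, a gene of the rule. Of 7 p53 targets, 1 was at least 1.5-fold higher in each library, where 3.0% of all genes were. Of the same 7, 4 were lower in each library, where 55.3% of all genes were. The median log2 ratio of the 7 was -0.28, near that of all genes. The higher one was Cdkn1a, the inhibitor of the cell cycle, at 3.35, 2.66 and 2.71 against 1.30 to 1.73, with the highest value in AOS 0. Of the 12 kynurenine pathway enzymes, 7 were in the table and Ido1 was the only one with enough UMIs to be tested.

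The class was not uniform. The 785 cells were split into 3 parts by 2 cuts on the panel score, a split that fixes the order of the panel genes. From the lowest to the highest part, Ido1 went from 0.945 to 13.0 per 10000 in AOS 0. Zg16, which is not in the panel, went from 1240 to 2423 in AOS 0, from 1516 to 2239 in B + A 0 and from 1469 to 2148 in B + A 10. S100a6 went from 30.4 to 57.3, from 39.3 to 53.3 and from 47.9 to 60.6, and Clps from 1.38 to 9.34, from 2.59 to 10.4 and from 2.94 to 13.9. Ribosomal protein genes went the other way in every library, from 613 to 222, from 618 to 292 and from 517 to 322. Enterocyte markers were also lower with a higher score, from 147 to 54.5, from 106 to 77.9 and from 178 to 86.8, so the cells with the most Ido1 panel genes had the fewest enterocyte transcripts. Of the other 2 panels, Mptx1 and Reg4 were higher with a higher score in each library. The rule permits this, since a cell with a higher Ido1 panel score can hold more of them and still be a member. Retnlb, Klk1 and Ccl9 were not higher in each library. Retnlb went from 43.5 to 30.9 in AOS 0, from 33.2 to 41.9 in B + A 0 and from 28.1 to 34.7 in B + A 10. Mptx1, a pentraxin of mucus, went from 1.71 to 74.4, from 3.56 to 57.0 and from 4.16 to 43.3, and Reg4, a secreted lectin, from 0.352 to 3.76, from 0.370 to 2.48 and from 0.348 to 3.07.

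**Figure D4:**
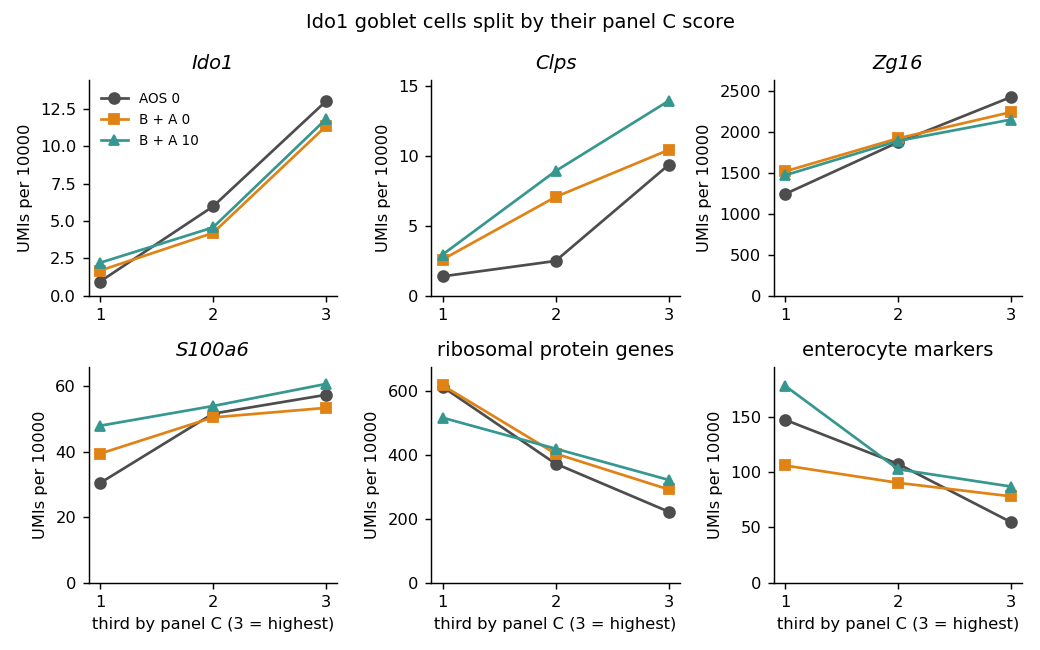
Levels in UMIs per 10000 in the lowest (1) to highest (3) part of Ido1 goblet cells by panel score, for 3 libraries. Ido1, Clps, Zg16 and S100a6 are higher in the highest part than in the lowest in each library, and the sums of ribosomal protein genes and enterocyte markers are lower.

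Between libraries, Ido1 goblet cells were compared over genes with at least 200 UMIs in the 2 libraries. For B + A 0 over AOS 0, 15 of 1162 genes (1.29%) were at least 1.5-fold higher and 52 (4.48%) at least 1.5-fold lower. For B + A 10 over B + A 0, 57 of 1010 (5.64%) were higher and 10 (0.99%) lower, and for B + A 10 over AOS 0, 51 of 1211 (4.21%) were higher and 34 (2.81%) lower. Scaled outside mucus, defensin and ribosomal protein genes, the same pairs of counts were 21 and 20, 44 and 10, and 71 and 29, so the balance of the first comparison depends on the scaling. With the suspected doublets left out, the 52 became 28. The comparisons share their libraries, and a gene that is odd in B + A 0 appears in the first 2. The panel genes differed little, with Ido1 at 0.854 (B + A 0 over AOS 0) and 0.905 (B + A 10 over B + A 0), Tm4sf4 at 0.884 and 0.883, and Gsta4 at 1.02 and 0.961.

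Genes of the interferon response were 4 of the 6 genes with the highest ratio of B + A 10 to B + A 0. Ifi27l2b, which interferon induces, was at 12.5, 6.46 and 32.1, a ratio of 4.98 (4.61 to 5.37) for B + A 10 over B + A 0. Rsad2, an enzyme that blocks the growth of many viruses, was at 1.13, 0.773 and 2.09 with a ratio of 2.70 (2.13 to 3.45). Ifit1, which binds foreign RNA, was at 2.30, 1.39 and 3.52 with a ratio of 2.52 (2.11 to 3.03), and Ifit1bl1 of the same family was at 2.81, 1.89 and 4.33 with a ratio of 2.30 (1.97 to 2.69). Isg15, a ubiquitin-like protein, was at 5.59, 3.87 and 6.82 with a ratio of 1.76 (1.57 to 1.97). In all of these B + A 0 was the lowest library and B + A 10 the highest. Of the 7 listed interferon genes with enough UMIs, 3 were at least 1.5-fold higher in B + A 10 than in B + A 0 and none lower. The shares over all genes were 5.64% higher and 0.99% lower.

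The difference was not limited to Ido1 goblet cells. The ratio of B + A 10 to B + A 0 in the other goblet cells was 3.98 for Ifi27l2b, 2.03 for Rsad2, 1.76 for Ifit1 and 1.64 for Ifit1bl1, and in the enterocyte reference it was 5.62, 2.30, 1.68 and 1.38. The 31 listed genes summed to 35.5, 23.5 and 57.8 per 10000 in Ido1 goblet cells, to 32.7, 23.5 and 45.9 in Reg4, and to 32.3, 26.2 and 47.3 in Retnlb goblet cells. In the enterocyte reference B + A 0 was also lowest, at 48.2, and B + A 10 highest, at 93.2. The 3 libraries thus kept the same order of these sums in all of these cells. Ifi27l2b was the largest single part of the sum in Ido1 goblet cells. The order did not hold for every gene, since Oas1a had 57, 75 and 100 UMIs there and was lowest in AOS 0. Irf7, a transcription factor of the response, had a ratio of 1.15 in Ido1 goblet cells and 1.12 in the enterocyte reference.

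The promoters of 3 of these genes are shown because interferon acts on such genes through the interferon-stimulated response element, whose core was searched on both strands as GAAA followed, after any 2 bases, by GAAA again. Each is the stretch of 250 bases before the start site, 5' to 3' on the strand of the gene, from RefSeq (GRCm38.p6), with matches of the core in capitals and overlapping matches joined. Rsad2 is on the minus strand at chr12:26456453-26456702, Ifit1 on the plus strand at chr19:34640639-34640888 and Isg15 on the minus strand at chr4:156200819-156201068.
Rsad2: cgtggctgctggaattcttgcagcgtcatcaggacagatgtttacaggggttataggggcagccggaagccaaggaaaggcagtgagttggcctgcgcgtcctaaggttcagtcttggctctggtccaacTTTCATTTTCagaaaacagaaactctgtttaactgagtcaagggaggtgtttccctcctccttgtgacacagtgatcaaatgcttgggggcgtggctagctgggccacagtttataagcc
Ifit1: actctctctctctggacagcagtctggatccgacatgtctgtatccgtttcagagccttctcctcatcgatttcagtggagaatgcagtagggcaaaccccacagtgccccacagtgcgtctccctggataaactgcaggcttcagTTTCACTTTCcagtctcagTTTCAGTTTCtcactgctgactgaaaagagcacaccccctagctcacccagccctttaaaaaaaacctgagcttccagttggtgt
Isg15: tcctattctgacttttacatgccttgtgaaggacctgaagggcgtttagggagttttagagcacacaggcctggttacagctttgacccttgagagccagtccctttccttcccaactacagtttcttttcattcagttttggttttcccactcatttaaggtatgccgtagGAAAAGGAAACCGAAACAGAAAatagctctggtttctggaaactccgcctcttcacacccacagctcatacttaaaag
Rsad2 held 1 match, starting 120 bases before the start site, Ifit1 held 2, starting 104 and 85 bases before it, and Isg15 held 3 that overlap, from 78 bases before it. Over windows from 250 bases before to 50 after the start site, 7 of the 16 interferon genes with a window held the core, 2 of 11 among the 20 genes highest in Ido1 goblet cells (Ttyh1 and Tmem140) and 3.44% of 32851 promoter windows in all. A match describes the sequence and not a site in use.

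Enterocyte genes also had higher summed levels in B + A 10. Of 10 enterocyte markers tested in Ido1 goblet cells, 7 were at least 1.5-fold higher in B + A 10 than in B + A 0, where 5.64% of all genes were. The summed markers of the median cell did not show this, at 74.6 in B + A 0 and 74.5 in B + A 10, and the sum over cells differed most in the part of the class with the lowest panel score, at 106 and 178, against 77.9 and 86.8 in the part with the highest. Fabp1, a fatty acid carrier, was at 10.8, 7.88 and 18.0 with a ratio of 2.28 (2.12 to 2.46), against 1.25 in the other goblet cells and 1.09 in the enterocyte reference. Anpep, a peptidase of the brush border, was at 2.31, 1.47 and 2.96, with ratios of 2.02, 1.46 and 1.13 in the same 3 kinds of cell. Fabp1 and Anpep are among the markers that chose the enterocyte reference, so their ratios there are a description. Enpep, another brush border peptidase, was at 0.990, 0.419 and 1.18 with a ratio of 2.81 (2.04 to 3.93), which rests on 52 UMIs in B + A 0. The enterocyte markers summed to 69.0 and 89.6 in Reg4 and to 83.3 and 74.5 in Retnlb goblet cells of B + A 0 and B + A 10, and the part of free RNA from enterocytes was not tested. Gip, an incretin hormone of enteroendocrine cells, had a ratio of 3.85, but 81.9% of its UMIs in B + A 10 came from 1 cell, and without the top cell of each library the ratio was 0.785.

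The 6 genes with the highest ratio of B + A 0 to AOS 0 were Gzma and Ccl5, known from lymphocytes, and Defa37, Ang4, Defa29 and Defa35, known from Paneth cells, of which Ang4 is also known from goblet cells. Gzma, a protease of cytotoxic lymphocytes, was at 0.887, 4.64 and 2.96, a ratio of 5.23 (4.34 to 6.35) for B + A 0 over AOS 0, and Ccl5, a chemokine of the same cells, was at 1.66, 5.89 and 6.83 with 3.54 (3.07 to 4.09). The ratios in the enterocyte reference were 2.89 for Gzma and 3.04 for Ccl5, and those in the other goblet cells 1.45 and 2.15. Of 15 listed T cell markers, the 13 that were in the table summed to 3.52, 13.8 and 12.7 in Ido1 goblet cells and to 4.06, 11.2 and 11.7 in the enterocyte reference, with none at 0. In the median cell they summed to 1.26, 6.53 and 7.46 in Ido1 goblet cells and to 1.21, 5.91 and 7.26 in the enterocyte reference. The T cell transcripts were thus at nearly the same level in both kinds of cell in each library, and their part in the result was not tested.

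Several Paneth cell products, the antimicrobial proteins of the crypt base, were also highest in B + A 0. Of the 8 listed Paneth markers tested, 4 (Lyz1, Defa17, Defa30 and Ang4) were at least 1.5-fold higher in B + A 0 than in AOS 0 and 1 was lower, Nupr1, a stress-induced chromatin protein, at 1.47, 0.878 and 0.885. Over all genes, 1.29% were higher and 4.48% lower by this measure. Defa37 was at 1.12, 3.46 and 1.71, Defa29 at 2.74, 7.15 and 3.72, Defa35 at 1.29, 3.25 and 1.69, and Ang4, a ribonuclease, at 1.23, 3.44 and 1.49, each highest in B + A 0. The ratios of B + A 0 to AOS 0 were 3.08, 2.61, 2.52 and 2.79 in Ido1 goblet cells and 2.46, 2.63, 1.75 and 2.28 in the enterocyte reference. Lyz1, the Paneth lysozyme, was at 3.46, 7.60 and 3.42, and Mptx2 and Mmp7 (a protease that activates defensins, with a ratio of 1.02 for B + A 0 over AOS 0) were lowest in B + A 10, with ratios to B + A 0 of 0.242 and 0.359 (0.352 and 0.363 without the top cell of each library). The Paneth markers, all 10 in the table and none at 0, summed to 116, 158 and 134 in Ido1 goblet cells and to 25.8, 63.4 and 41.0 in the enterocyte reference. In Reg4 goblet cells they summed to 133, 182 and 146. Retnlb goblet cells went the other way, at 306, 224 and 326, with B + A 0 lowest. Alpha-defensins are near copies of each other, and their single values are uncertain.

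**Figure D5:**
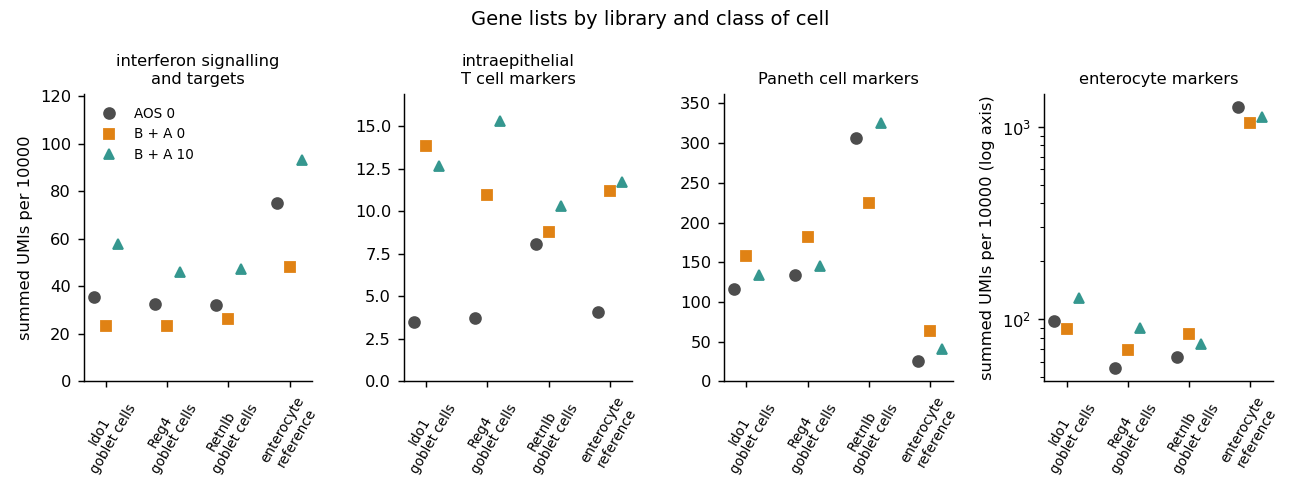
Summed UMIs per 10000 of 4 gene lists in the 3 goblet classes and the enterocyte reference, 1 point per library (log axis for enterocyte markers). The sum of interferon genes is lowest in B + A 0 and highest in B + A 10 in each kind of cell, and T cell markers in Ido1 goblet cells are at 3.52, 13.8 and 12.7.

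Hmgcs1, Fdps and Msmo1, 3 genes of cholesterol synthesis, were among the genes with the lowest ratios to AOS 0, and no list of that pathway was counted. Hmgcs1, which makes the precursor of mevalonate, was at 2.99, 1.46 and 1.24, a ratio of 0.487 (0.408 to 0.579) for B + A 0 and 0.414 (0.344 to 0.498) for B + A 10 over AOS 0. Fdps, the farnesyl diphosphate synthase, was at 2.08, 1.34 and 1.01, and Msmo1, a sterol methyl oxidase, at 1.56, 0.854 and 0.767. For B + A 10 over AOS 0 the ratios of Hmgcs1, Fdps and Msmo1 were 0.414, 0.488 and 0.493 in Ido1 goblet cells, 0.603, 0.696 and 0.638 in the other goblet cells and 0.854, 0.818 and 0.991 in the enterocyte reference. These genes were chosen by the size of their difference in Ido1 goblet cells, so their larger distance from 1 there is a description.

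Other genes at the ends of the comparisons were of several kinds. Hspa8, the constitutive heat shock chaperone, was at 1.59, 2.72 and 3.67, with a ratio of 2.30 (1.97 to 2.70) for B + A 10 over AOS 0 and 2.31 in the enterocyte reference. Wdr89 was at 0.765, 1.35 and 1.80, and Rsrp1 was at 2.15, 1.43 and 0.949. Cd74 was at 1.86, 0.862 and 1.60, lowest in B + A 0, with a ratio of 0.464 (0.368 to 0.581) to AOS 0 and 0.505 in the enterocyte reference. Sval1 was at 4.18, 1.95 and 2.21, with a ratio of 0.467 for B + A 0 over AOS 0 against 1.58 in the enterocyte reference. Neither Muc2 at 0.951 and 0.959 nor Zg16 at 1.02 and 0.922, for B + A 0 over AOS 0 and B + A 10 over B + A 0, passed 1.5-fold, and the 6 goblet genes of the first step all stayed within it.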

How the data were processed

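The authors made the counts with Cell Ranger 2.2.0 on mm10 (GRCm38) with 5000 forced cells per library, kept cells with 200 genes and genes in 3 cells, and deposited 1 table of 13891 genes and 12653 cells in natural log values, ln(1 + UMIs per 10000 UMIs of a cell). All 24333763 values above 0 gave whole UMIs back within 0.01. Goblet cells were chosen on the log values, and levels and ratios are from UMIs summed over cells. Shares have exact binomial, differences of shares Newcombe, and ratios exact conditional binomial 95% intervals. With 1 library per group no test was made. Doublet scores are from Scrublet, whose automatic threshold marked 0.427% of cells and was not used. Named genes are those of the rule, the 20 highest and 10 lowest ratios to the other goblet cells, the 6 highest and 6 lowest ratios between libraries, and the leading genes of each list. Ada, Anpep, Anxa3, Muc2, Rab27a, Rab3d, Sytl2 and Xbp1 were chosen from the lists after their values were seen. A gene among the 20 highest is not reported here. The members and gene lists were chosen with earlier results of these data known. Code was tested on simulated data. Alternatives changed the panel genes, the first step, depth, doublets, scaling and the filter of 200 UMIs. Python 3.11.15, scipy 1.17.1, scanpy 1.11.5, numpy 2.4.6 and matplotlib 3.10.9 were used.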

Additional observations from a re-analysis of the deposited data

How the results depend on the processing

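Of the values for shares and gene counts under the alternatives, 119 kept their size, 34 did not, and none with an interval away from 0 changed its sign. B + A 10 minus B + A 0 was above 0 in 9 of 14 settings. No paired analysis was possible because each group is 1 library. The 46 genes at least 2-fold higher in Ido1 goblet cells were 23 with Ido1 left out of its panel, 13 with cells thinned to 2000 UMIs, 24 with at least 500 UMIs per gene and 78 with the other scaling, and the 274 lower ones were 155, 135, 177 and 133. The share in B + A 0 was 36.6% with thinned cells, and shares were 24.7%, 32.0% and 31.7% where a lead of 0.5 z was asked for. B + A 10 minus AOS 0 was 2.69 points with z-scores within each library. With thinned cells and no Ido1 in the panel, an alternative chosen after seeing the data, B + A 0 minus AOS 0 was 0.742 points. Ratios of shares with a UMI, in place of levels, were 4.79 for Ido1, 1.71 for Tm4sf4 and 1.94 for Gsta4. For B + A 0 over AOS 0, the 15 higher genes were 6 with thinned cells and 33 with at least 100 UMIs per gene, and the 52 lower ones were 19 thinned, 28 without suspected doublets, 143 with at least 100 UMIs, 13 with 500 and 20 with the other scaling. For B + A 10 over B + A 0, the 57 higher genes were 32 thinned, 149 with 100 and 22 with 500 UMIs, and the 10 lower ones were 29 with 100. For B + A 10 over AOS 0, the 51 higher genes were 29, 102 and 27, and the 34 lower ones were 22, 99 and 8, in the same order. The cause was not tested, except that thinning and stricter filters leave fewer genes. Depth limits genes under about 1 UMI per 10000, and 1 library of 6 mice per group leaves the spread between mice unknown.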
